A study of Mus musculus with 48 samples.

Results

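Captured methylated DNA was compared between the duodenum of 7 GermFree mice and that of 5 ConvR mice. The 12 libraries were all the duodenum libraries of a series of 48, which holds 4 sections of the intestine (duodenum, jejunum, ileum and colon) from the same 12 mice. Each library came from 1 mouse, so the replicates were separate animals, and 95882 regions were counted in each. GermFree mice are kept without microbes, and ConvR mice are described as conventionalized. The sources used here do not give strain, sex, age, diet, housing or the history of the ConvR mice, so a difference between the models and a difference in their breeding cannot be told apart. The tissue is labelled intestine and the section duodenum, with no sorting of cells, so a change within cells and a change in the mix of cells cannot be told apart either. Captured DNA carries no level of expression, and the label was not checked against markers of the duodenum.

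Vertebrate DNA is methylated mainly at cytosines that precede a guanine (CpG), and cells use this mark, at promoters and repeats in particular, to hold genes silent. In MBD-seq a methyl-CpG-binding protein domain pulls methylated fragments out of sheared DNA, and the reads of the captured fragments are counted over regions of the genome. A higher count means more captured DNA. It rises with the methylation of a region, with its number of CpG sites and with the number of copies of the region in the genome, and methylation and copy number cannot be told apart in these counts. The duodenum, the first section of the small intestine, absorbs iron, calcium and nutrients, holds the mucus glands of Brunner and has a thinner microbiota than the colon. The series title names genes that activate natural killer cells. These are innate lymphocytes that read inhibitory and activating Ly49 receptors, encoded by the Klra genes, and the activating receptor NKG2D, whose ligands of the Raet1 and H60 families appear on stressed cells.

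Library totals ran from 1227571 counts (ConvR mouse 1) to 3033782 (ConvR mouse 5), and the median region held 9 to 23 counts. ConvR mice 1 and 3 had the smallest totals (1227571 and 1438806). Counts are given below as CPM, library-size-scaled counts with TMM factors, and differences as log2 of GermFree over ConvR with the standard error (SE). A region was called when its edgeR quasi-likelihood adjusted p was under 0.05.

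GermFree duodenum had more captured DNA at a small number of places, and most of these lay side by side in a few stretches of the genome. Of 75328 regions tested, 349 were called (0.463%), of which 319 were higher (0.423%) and 30 lower (0.0398%) in GermFree mice. At an unadjusted p under 0.05 there were 5264, and the median difference of all tested regions was -0.00276. In 147 of the 349 called regions the mice of the models did not overlap (135 higher, 12 lower), which held for 380 of all tested regions (0.504%, with 0.319% higher and 0.186% lower). Called regions were joined into clusters, as a description, across gaps of at most 500 kb where 5 or more were called. The 9 clusters held 269 of the 349 calls in 341 tested regions (0.453% of those tested). None of these 269 was lower. The intervals of the multi-copy families Klra, Raet1, Btbd35f, Spin2 and Mup held 176 calls in 258 tested regions. Outside them, 173 of 75070 tested regions were called (0.23%), 143 higher and 30 lower. Higher calls were broad, with a median width of 3641 bp against 1606 bp for all tested regions, and 59.9% of them lay away from annotated genes against 27.2% of tested regions. Gene bodies held 17.2% of the higher calls and 55.1% of the tested regions. Lower calls had a median width of 1080 bp. Each region is named for GermFree in the deposited files. If peaks were called on GermFree libraries, places richer in ConvR mice would be missing in part from the table.

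A small part of the calls touched a gene start, and most of these lay in the clusters or the multi-copy families. Of 2201 tested regions that touched a promoter window of RefSeq (250 bases before to 50 after a gene start), 18 were called (0.818%, against 0.463% of all tested regions). They touched 23 windows at 19 genes, with a median of 2 CpG sites per window. The median was 6 in the windows touched by any tested region and 7 in all 32817 windows. Away from the clusters and family intervals, the 18 regions lay only at Ifi202b, Abr, Pxmp4, C1s1 and C1rb. Higher calls were also wider than tested regions (medians of 3641 and 1606 bp), and the part of width in the rate was not tested. The windows of 4 genes are shown because the called region spans them whole, they represent results described below and they differ in CpG content, the substrate of the capture. CpG sites are in capitals, and the sequences are those of RefSeq on GRCm38.p6, the assembly of mm10, 5′ to 3′ on the strand of the gene. The window of Cr2, higher in GermFree mice, lies at chr1:195176670-195176969 on the minus strand and holds 14 sites, and 36.3% of all windows hold at least 14. The window of Pxmp4, higher as well, lies at chr2:154603624-154603923 on the minus strand and holds 9. That of Klra9, higher, lies at chr6:130193063-130193362 on the minus strand and holds 2. That of Klra4, in the called region from 130059373 to 130070570 (log2 1.19), lies at chr6:130067222-130067521 on the minus strand and holds 0, as do 5.43% of all windows.
Cr2: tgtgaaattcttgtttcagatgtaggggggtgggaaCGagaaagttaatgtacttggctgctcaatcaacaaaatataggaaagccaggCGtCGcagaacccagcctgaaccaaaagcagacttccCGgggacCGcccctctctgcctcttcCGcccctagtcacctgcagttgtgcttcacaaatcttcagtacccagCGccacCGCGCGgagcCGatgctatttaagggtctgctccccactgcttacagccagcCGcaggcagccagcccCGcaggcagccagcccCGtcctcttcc
Pxmp4: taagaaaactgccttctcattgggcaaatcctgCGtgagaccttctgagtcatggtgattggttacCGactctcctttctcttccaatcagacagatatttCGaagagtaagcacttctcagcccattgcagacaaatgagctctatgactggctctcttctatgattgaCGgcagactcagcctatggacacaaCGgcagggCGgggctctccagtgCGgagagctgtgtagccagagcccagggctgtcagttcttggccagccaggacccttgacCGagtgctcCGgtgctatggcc
Klra9: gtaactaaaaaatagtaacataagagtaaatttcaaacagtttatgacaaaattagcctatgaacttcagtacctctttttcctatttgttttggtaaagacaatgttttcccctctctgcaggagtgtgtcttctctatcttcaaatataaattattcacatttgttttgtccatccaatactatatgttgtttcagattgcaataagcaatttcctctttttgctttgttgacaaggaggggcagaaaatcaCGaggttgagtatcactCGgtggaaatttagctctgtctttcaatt
Klra4: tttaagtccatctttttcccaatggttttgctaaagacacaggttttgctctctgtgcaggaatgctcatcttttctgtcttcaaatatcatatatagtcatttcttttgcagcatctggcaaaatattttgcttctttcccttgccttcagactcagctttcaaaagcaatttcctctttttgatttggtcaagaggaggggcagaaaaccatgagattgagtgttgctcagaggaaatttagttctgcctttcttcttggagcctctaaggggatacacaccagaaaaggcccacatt

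The Klra genes were higher across most of their cluster. In the Klra interval 25 of 34 tested regions were called, all higher, with a median log2 difference of 0.86 over the tested regions. By gene, 7 of the 9 Klra genes of the list with a tested region had a called one (Klra1, Klra3, Klra4, Klra7, Klra8, Klra9 and Klra10), in 15 of 20 regions. The broadest region, over Klra9 and the start window shown above (chromosome 6, 130187367 to 130211212), gave 149.9, 212, 121, 188 and 162 CPM in ConvR mice 1 to 5. The GermFree mice ran from 285 through a median of 407 to 502, so the models did not overlap, and the log2 difference was 1.24 (SE 0.14; edgeR adjusted p = 2.86e-09). In the other called region over Klra4 (130042204 to 130053893) the ConvR mice gave 34.6, 55.9, 24.7, 53.6 and 43.1 CPM. The GermFree mice gave 68.5 at the lowest, 105 at the median and 129 at the highest, again with no overlap (log2 1.23, SE 0.14; edgeR adjusted p = 2.86e-09). Klra7 (130214425 to 130219298) was at 16.9, 29.7, 14.2, 31.1 and 18.7 CPM in ConvR mice and at 37.2 to 71.2 in GermFree mice (log2 1.29, SE 0.15). Klra3, another Ly49 receptor gene, separated the models less fully: its region from 130326933 put 4 of 7 GermFree mice above the ConvR range (log2 0.95, SE 0.18; edgeR adjusted p = 0.000554), and DESeq2 did not call it. Its difference was no longer past the threshold once the share of Y counts was a covariate. At Klra8 a second called region, from 130128258, lost its call when any 1 of ConvR mice 1, 3, 4 and 5, and of GermFree mice 1, 3, 4 and 7, was left out. Ly49 genes are near copies of each other, and the sources used here do not say how reads were placed among them, which leaves each member's own value uncertain.

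The higher counts went on past the Klra interval described above. Klra2, a Klra gene further along the chromosome (interval 131193970 to 131252716), lies beyond the cluster, and no region was counted there. The cluster ran from 129987093 to 131015142 on chromosome 6 and held 58 calls in 72 tested regions, of which 25 lay in the Klra interval. Regions within 50 kb of predicted genes beyond it gave values of similar size: Gm38706 63.7 ± 15.8 CPM in ConvR mice (SD, n = 5) against 124.5 ± 20.2 in GermFree mice (SD, n = 7), with a log2 difference of 0.95, and LOC115490339 38.1 ± 6.18 against 73.5 ± 13.4. Summed over the cluster, the ConvR mice gave 2382, 3222, 1784, 2950 and 2437 CPM, and the GermFree mice 3559 at the lowest, 5230 at the median and 5949 at the highest, a ratio of means of 1.89 with no overlap. The flanks, 200 kb on each side, held 5 and 7 tested regions, none called, with medians of 0.31 on both sides and a range from -0.11 to 0.49.

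Captured DNA was higher at 3 of 5 list genes of NKG2D ligands, H60b, Raet1d and Raet1e, in 13 of 20 regions. The Raet1 interval was called almost throughout (22 of 23 tested regions), where 0.463% of all tested regions were called. How reads were placed among the Raet1 copies is not given, which leaves each member's own value uncertain. The region over H60b (chromosome 10, 22278837 to 22288912), a histocompatibility antigen that binds NKG2D, gave 34.6, 43.6, 29.2, 45.4 and 29.0 CPM in ConvR mice. The GermFree mice ran from 95.9 (mouse 4) through 149.9 to 229 (mouse 5), above every ConvR mouse (log2 2.13, SE 0.15; edgeR adjusted p = 7.52e-17). The region within 5 kb of Raet1d (22355369 to 22361158) gave 17.7, 23.9, 17.2, 20.9 and 12.005 CPM in ConvR mice and 42.7 to 66.0 in GermFree mice, with a median of 56.9 (log2 1.58, SE 0.14; edgeR adjusted p = 5.5e-13). Raet1e (22160236 to 22164160) gave 16.9, 16.2, 8.24, 13.8 and 13.4 CPM against 23.8 to 57.1 (log2 1.52, SE 0.16). The noncoding and predicted genes among them moved as far, with log2 differences of 2.08 at Gm26740 and 1.62 at C920009B18Rik. Summed over the cluster (22149251 to 22594287, 26 of 34 tested regions called), the ConvR mice gave 331 to 584 CPM and the GermFree mice 854 to 1576, a ratio of 2.59. The 8 tested regions within 200 kb on one side of the cluster had a median log2 difference of -0.115 and the 13 on the other side -0.000245, none called. Inside the cluster the values were uneven too, from -0.94 to 2.37. The plot of 4 clusters shows uncalled regions between -0.94 and 0.07 to the right of the Raet1 genes, before the last called one.

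The largest differences lay on the X chromosome, at 2 stretches of tandem gene copies. Btbd35f genes encode proteins with a BTB domain, and Spin2 genes belong to the spindlin family of histone readers. In the stretch from 31130368 to 34492406, which holds Btbd35f and Spin2 copies, 83 of 100 tested regions were called. Its summed CPM was 1141, 1465, 809, 1534 and 1042 in ConvR mice, and 1491 (mouse 3), 3729 (median) and 6840 (mouse 7) in GermFree mice, a ratio of 3.18. GermFree mouse 3 therefore lay inside the ConvR range and the other 6 above it. In the stretch from 3051711 to 5392838, 52 of 62 tested regions were called, and the sums were 474, 573, 381, 615 and 441 CPM in ConvR mice against 563 (mouse 3), 1326 (median) and 2368 (mouse 7), a ratio of 2.74. The region within 50 kb of Btbd35f8 (34463535 to 34470395) gave 22.7 ± 7.33 CPM in ConvR mice (SD, n = 5) and 118 ± 66.2 in GermFree mice (SD, n = 7), which differed by a log2 of 2.32 (SE 0.23; edgeR adjusted p = 2.38e-11). The separate Spin2 interval further along the chromosome held 1 tested region, which was not called (log2 -0.03). On the X chromosome 140 of 323 tested regions were called (43.3%), against 0.463% of all tested regions. All of these calls lay in the 2 stretches and in the cluster at Erdr1 and Mid1 described next. None lay elsewhere on the chromosome.

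Both ends where X and Y share sequence were also higher. Mid1, a ubiquitin ligase gene, spans the edge of the pseudoautosomal region of the laboratory mouse, and Erdr1 lies inside it. In the X cluster with Erdr1 and Mid1 (169970560 to 170022741) 5 of 6 tested regions were called, with sums of 219, 228, 193, 179.7 and 182 CPM in ConvR mice and of 222, 306 and 473 (lowest, median, highest) in GermFree mice. In the Y cluster with Gm33272 and Mid1-ps1 (90717480 to 90811171) 6 of 9 were called, with 563, 553, 473, 393 and 407 CPM in ConvR mice and 468, 794 and 1286 in GermFree mice. At both ends GermFree mouse 1 lay inside the ConvR range and the other 6 mice above it, in the same order (mice 7, 6, 4, 3, 5 and 2 from the highest down). Reads from matching X and Y copies cannot be told apart by position, so these are not independent results.

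The major urinary protein genes (Mup), which encode pheromone carriers made in liver, had calls as well. Of 52 tested regions 6 were called, all higher, where 0.463% of all tested regions were called. The median log2 difference was 0.24, against -0.00276 over all tested regions and 0.86 in the Klra interval. The region within 50 kb of Mup17 (chromosome 4, 61550772 to 61581947) gave 153 ± 29.2 CPM in ConvR mice (SD, n = 5) and 259 ± 37.8 in GermFree mice (SD, n = 7), with 7 of 7 above all ConvR mice (log2 0.74, SE 0.13; edgeR adjusted p = 8.24e-05). The called regions at Mup-ps1 and Mup-ps4 did not pass without ConvR mice 1 and 3, and that at Gm21286 was lost without ConvR mouse 4 (log2 1.17) and also without GermFree mouse 1 (1.17) or mouse 5 (1.03).

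**Figure D1:**
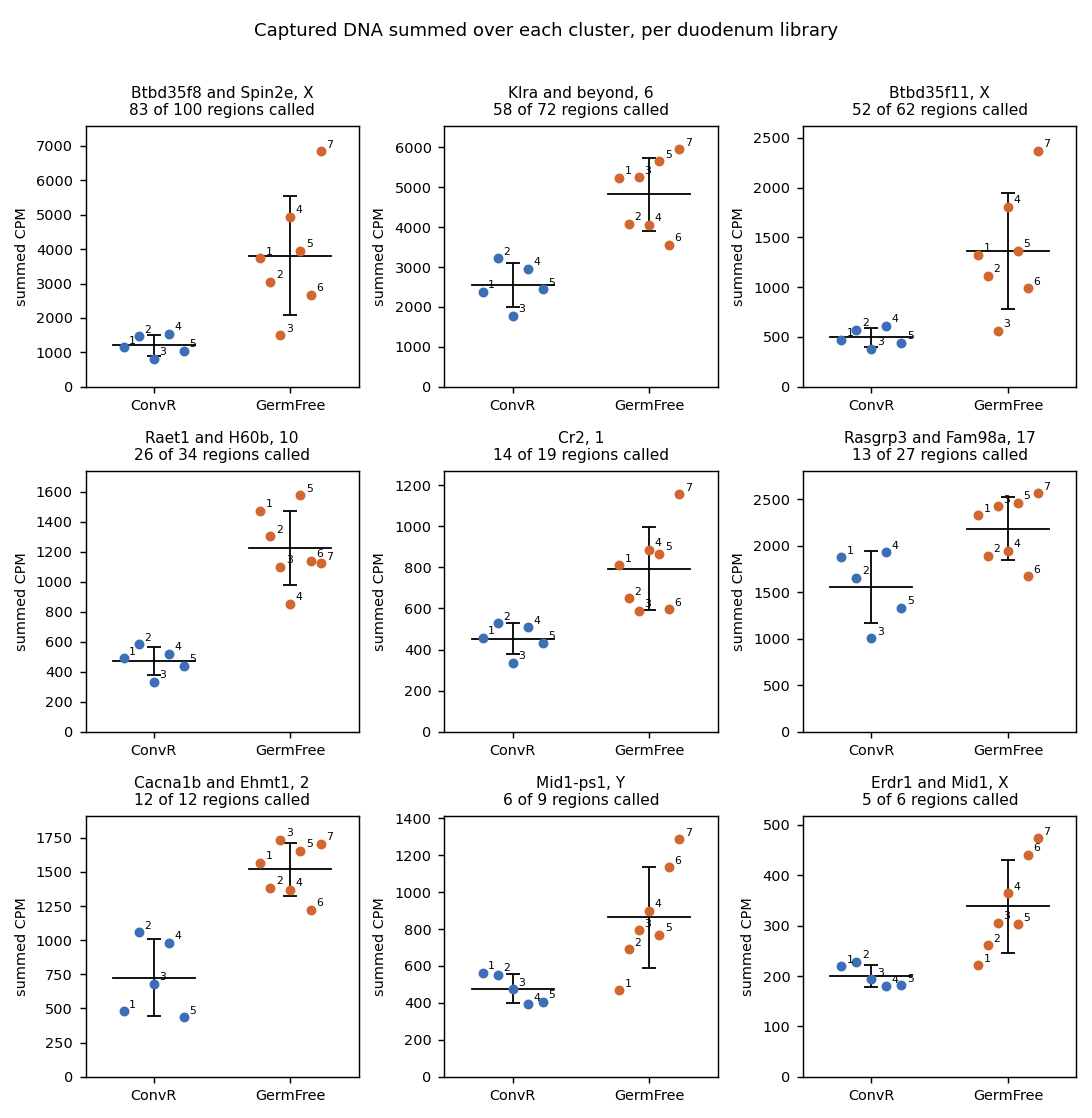
Summed CPM (y axes, linear from 0) of the tested regions of each of the 9 clusters, 1 point per duodenum library, numbered by mouse, with the mean and SD of 5 ConvR and 7 GermFree mice. The models do not overlap at Klra, Raet1 and H60b, Cr2, and Cacna1b and Ehmt1, while 1 GermFree mouse or more lies in the ConvR range at the other 5.

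Outside the families, a uniform change lay over 2 neighbouring genes on chromosome 2. Cacna1b encodes the pore of a neuronal calcium channel, and Ehmt1 a methyltransferase for histone H3. All 12 tested regions from 24661151 to 24802813 were called, with log2 differences between 0.90 and 1.09. Of these, 10 lay in or within 5 kb of Cacna1b and 3 of Ehmt1, with 1 counted for both. At Ehmt1 the region from 24796869 to 24802813 gave 28.4, 52.1, 41.9, 59.7 and 26.1 CPM in ConvR mice, against 75.8 at the lowest, 79.9 at the median and 96.5 at the highest in GermFree mice (edgeR adjusted p = 4.49e-07, log2 0.96 with SE 0.13). At Cacna1b the region from 24755995 to 24761674 gave 24.0, 47.1, 32.2, 47.5 and 20.8 CPM in ConvR mice and 59.4, 73.5 and 87.3 in GermFree mice (edgeR adjusted p = 6.05e-08, log2 1.08 with SE 0.14). Neither region overlapped between the models. Summed over the stretch, ConvR mice 1 and 5 gave 478 and 435 CPM, mouse 3 678, and mice 2 and 4 1059 and 981, so the ConvR mice themselves were spread widely, while the GermFree mice lay between 1223 and 1734 with a median of 1565. The ratio of means was 2.09. The 8 and 5 tested regions within 200 kb on the 2 sides had medians of 0.01 and 0.09, and none was called. One called Cacna1b region, from 24740434, lost its call in 2 alternatives, 1 of them the fit without ConvR mouse 5 (log2 0.66).

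**Figure D2:**
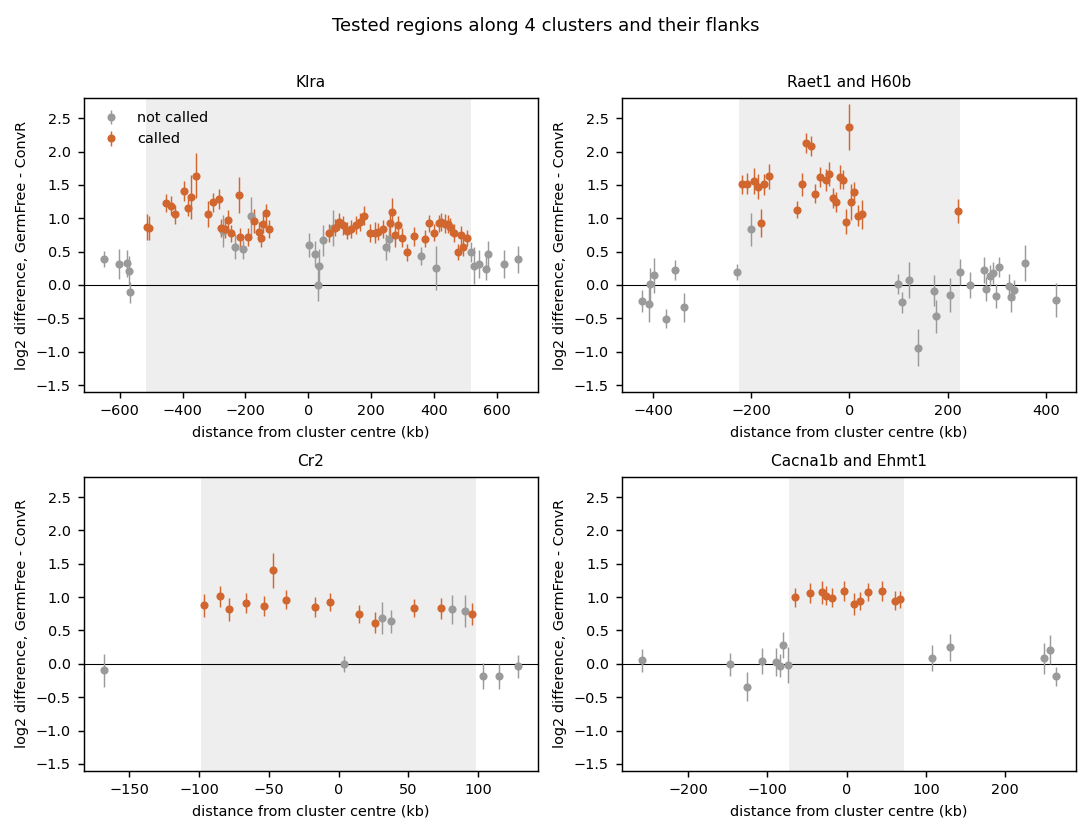
Log2 difference of GermFree over ConvR (y axes, points with SE) for each tested region, by distance in kb from the centre of 4 clusters (x axes). Grey bands are the clusters and orange points are called regions. All 12 regions of the Cacna1b and Ehmt1 cluster lie between 0.90 and 1.09 with flanks near 0, while the flanks of the Klra cluster have medians of 0.31.

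Cr2, the gene of a complement receptor on B cells and follicular dendritic cells, rose at 5 regions in or within 5 kb of it, with log2 differences between 0.81 and 1.01. The region that covers its promoter window (chromosome 1, 195163667 to 195178371) gave 46.1, 56.3, 32.2, 58.7 and 49.4 CPM in ConvR mice. GermFree mice gave 60.7, 83.3 and 152 (lowest, median, highest), all above ConvR (log2 0.92, SE 0.15; edgeR adjusted p = 2.81e-05), although DESeq2 did not call it. Inside the gene, and called in every alternative, the region from 195149833 to 195155000 gave 11.5, 23.5, 11.98, 16.8 and 18.4 CPM against 24.2, 35.4 and 50.5 (log2 1.01, SE 0.16; edgeR adjusted p = 6.69e-06). The other 4 lost the call somewhere. The regions from 195139473 and 195156822 lost it with the title code as a block (log2 0.65 and 0.58) and with the Y share as a covariate. That from 195156822 also lost it without ConvR mice 1 and 3, and that from 195180491 with DESeq2 (0.91) and with the Y share. The title code is a code in the sample titles that most mice share with a mouse of the other model. GermFree mice 5 and 7 share theirs with no ConvR mouse and add nothing to the model difference in that fit. The cluster ran on to Gm29726 and Vmn2r-ps1, with 14 of 19 tested regions called, sums of 336 to 527 CPM in ConvR mice and 589 to 1155 in GermFree mice, and a ratio of 1.75. Its nearest tested neighbours had log2 differences of -0.10 and -0.19.

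Of the other complement genes, the neighbours C1ra, C1s1 and C1rb on chromosome 6, which encode the proteases of the first complement component, rose as well. In all, 4 of the 19 complement genes with a tested region had a called one, Cr2 included. These calls were 8 of 37 regions, where 0.463% of all tested regions were called. Of the 8, 5 were the Cr2 regions, and the median log2 difference of the list was -0.0351. C1ra (124516219 to 124525453) gave 40.8, 42.8, 38.2, 47.99 and 40.3 CPM in ConvR mice and 51.5, 60.6 and 77.9 in GermFree mice, all above ConvR (log2 0.54, SE 0.12; edgeR adjusted p = 0.0046). C1s1 (124527631 to 124547604) gave 71.9, 110, 73.4, 97.004 and 81.2 CPM against 108, 135 and 150, and 1 GermFree mouse lay under the highest ConvR mouse (log2 0.59; edgeR adjusted p = 0.00159). C1rb (124559924 to 124572768) was at 33.7 to 66.5 CPM in ConvR and 69.9 to 106 in GermFree mice (log2 0.64; edgeR adjusted p = 0.00155). Without ConvR mice 1 and 3, C1ra and C1s1 did not pass and C1rb did. With the title code as a block, or the Y share as a covariate, C1ra and C1rb did not pass. C1ra and C1rb are close copies of each other, as are the C1s genes, and their values share the uncertainty of the multi-copy families.

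In a stretch of chromosome 17 (75489342 to 75836098) that starts at Rasgrp3, a Ras activator gene of B cells, and holds Fam98a, the change was smaller. Of 27 tested regions 13 were called, with log2 differences of 0.50 to 0.65 among them. Most of the 13 were assigned to the predicted genes Gm9360, Gm46584 and Gm4710 or had no gene within 50 kb. The sums overlapped: 1875, 1655, 1006, 1927 and 1333 CPM in ConvR mice against 1670, 2328 and 2563 (lowest, median, highest) in GermFree mice, with 5 of 7 above all ConvR mice.

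Away from clusters and families, 74 regions were called, 44 of them higher. Pxmp4, a peroxisomal membrane protein gene, had the region at its start shown above (chromosome 2, 154602466 to 154606281) at 19.5, 16.97, 13.5, 21.4 and 14.5 CPM in ConvR mice and at 27.7, 34.8 and 43.7 in GermFree mice, with no overlap (log2 1.04, SE 0.14; edgeR adjusted p = 1.83e-07). It passed in every alternative that tested it. On chromosome 11, BC018473 (116744773 to 116759373) gave 151, 161, 137, 172 and 112 CPM against 219, 292 and 327, all above ConvR (log2 0.90, SE 0.13; edgeR adjusted p = 1.15e-06). Its neighbours Gm11735 (log2 0.69) and St6galnac1, a sialyltransferase gene (log2 0.54), were called too. St6galnac1 did not pass in 2 alternatives, 1 of them the fit without ConvR mouse 5 (0.49). Ceacam-ps1, a pseudogene of the carcinoembryonic antigen family on chromosome 7, had 2 called regions in or within 5 kb of it (log2 1.058 and 0.95), and each put 7 of 7 GermFree mice over the highest ConvR mouse. Mug2, a murinoglobulin protease inhibitor gene (chromosome 6, 122077884 to 122083163), gave 20.3 ± 3.57 CPM in ConvR mice (SD, n = 5) and 37.4 ± 6.86 in GermFree mice (SD, n = 7), also with 7 of 7 above (log2 0.83, SE 0.14; edgeR adjusted p = 2.53e-05).

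Further single regions were higher at Rgs7, a regulator of G-protein signalling (chromosome 1, 175207024 to 175212107), and at the sugar-phosphate transporter gene Slc37a3 (chromosome 6, 39334935 to 39339163). At Rgs7 (log2 0.66) and Slc37a3 (0.58) 6 of 7 GermFree mice exceeded the highest ConvR mouse. Rgs7 lost its call with the title code as a block (0.53; edgeR adjusted p = 0.0554) and with the Y share as a covariate (0.45), and Slc37a3 with DESeq2. The interferon-inducible genes Ifi202b and Ifit3b were called at the edge of the threshold: Ifi202b (log2 0.54; edgeR adjusted p = 0.0177) lost its call without ConvR mouse 3 (0.44) or 5 (0.51), and without GermFree mouse 1 (0.52), 5 (0.46) or 7 (0.49), and Ifit3b (log2 0.54; edgeR adjusted p = 0.0252) lost its call without ConvR mouse 3 (0.40) and when GermFree mouse 1 (0.49), 3 (0.52) or 5 (0.53) was left out. Both also lost it with DESeq2, with the title code as a block (0.39 and 0.54) and with the Y share as a covariate (0.25 and 0.36). A region at or near Ifi203 (chromosome 1, from 173949661), close to Ifi202b, was called higher too, but 16 alternatives lost the call and 9 kept it. Of the 44 higher calls away from clusters and families, 24 passed in each of the 12 fits that left out 1 library. Genes in this paragraph and several above were chosen after their values were seen.

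**Figure D3:**
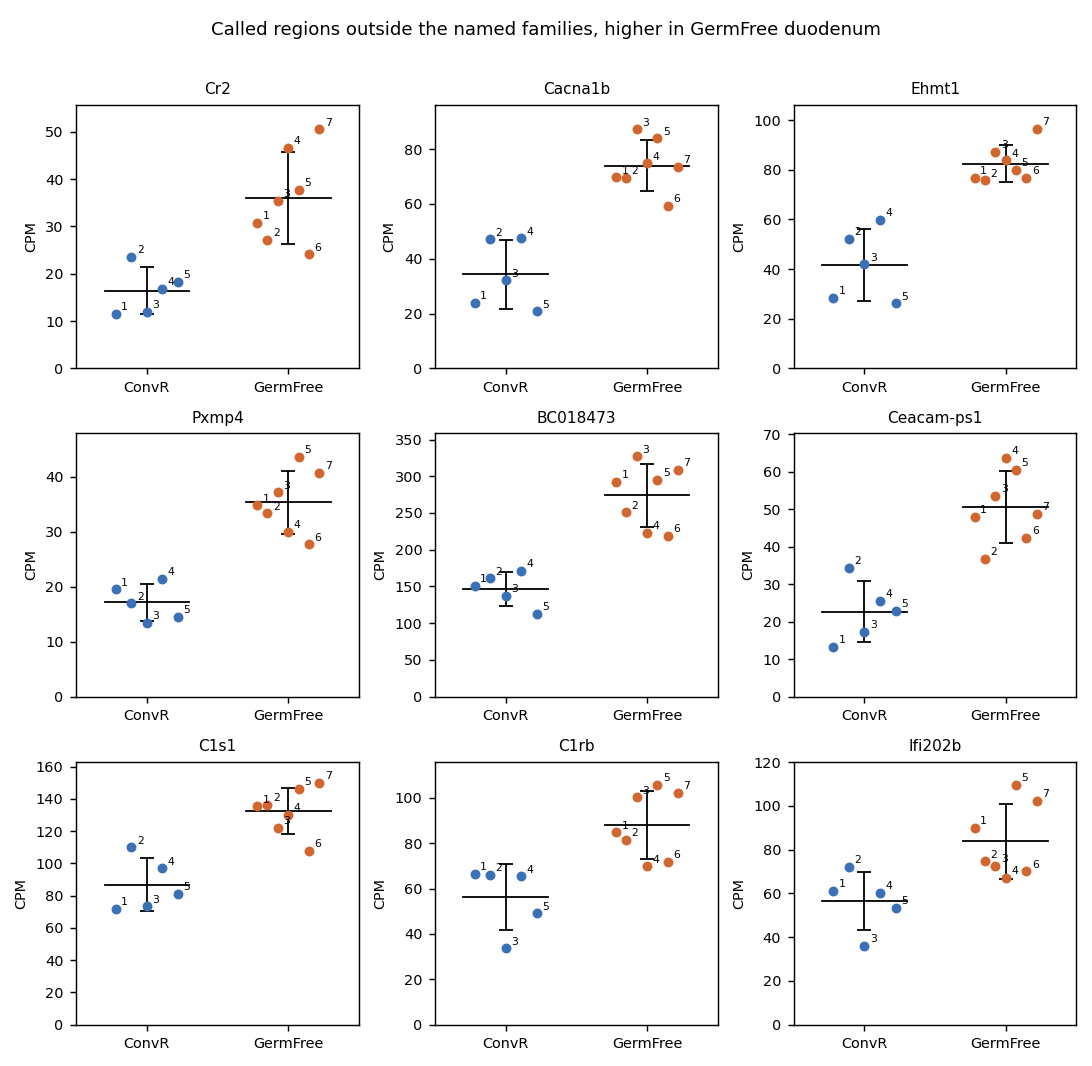
CPM (y axes, linear from 0) of 9 called regions outside the named families, 1 point per duodenum library, numbered by mouse, with the mean and SD of 5 ConvR and 7 GermFree mice. For each gene the called region with the smallest p is plotted, and at C1s1 and Ifi202b at least 1 GermFree mouse lies below the highest ConvR mouse.

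The 30 regions with less captured DNA in GermFree duodenum had a median width of 1080 bp, with the widest, at Gins4, of 6120 bp, and none lay in a cluster or in a family interval. The strongest falls followed the same 2 ConvR mice. At Gm34259 (chromosome 17, 4625871 to 4626954) ConvR mice 1 and 3 gave 143 and 115 CPM and ConvR mice 2, 4 and 5 gave 8.49, 3.57 and 17.7, while GermFree mice gave 3.97, 7.47 and 28.8 (lowest, median, highest). Its log2 difference was -2.13 (SE 0.40; edgeR adjusted p = 0.000564), it did not pass without ConvR mouse 1 (-1.46), and without both mice it was -0.06. Gm36011, Gm24105, Gm18326, Gm30863, Zfp949 and Cd80, the gene of a ligand that costimulates T cells, had the same pattern, with ConvR mice 1 and 3 above all other mice. In all, these mice were the highest pair at 13 of the 30 regions. The Cd80 region (chromosome 16, 38461788 to 38462554) gave 25.7, 6.94, 19.5, 3.57 and 7.06 CPM in ConvR mice against 1.66, 4.04 and 6.22 in GermFree mice (edgeR adjusted p = 0.0206, log2 -1.27 with SE 0.30), and the call was lost without ConvR mouse 1 (-0.93) or 3 (-1.04) or GermFree mouse 1 (-1.26), 3 (-1.18) or 4 (-1.15). Of the 30 regions, ConvR mouse 1 was the highest mouse at 14 and ConvR mouse 3 at 10. These 2 libraries were also the shallowest of the 12, and the part of depth in the result was not tested. Without them 7 regions were called lower, 3 of them among the 30.

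Of the 30 lower regions 12 did not overlap between the models, against 0.186% of all tested regions whose mice were lower without overlap. They lay at or near Gins4, Pip5k1b, Zan, Gm11221, Evi5l, Rbms3, Prss23, Arid1b, Vwa8, Nckap5l and Mb21d2, and 1 had no gene assigned. Gins4, a subunit of the replication complex GINS (chromosome 8, 23226890 to 23233009), gave 39.0, 42.8, 52.4, 43.9 and 38.5 CPM in ConvR mice and 21.8, 31.05 and 33.3 in GermFree mice (edgeR adjusted p = 0.00458, log2 -0.55 with SE 0.12). Pip5k1b, a phosphoinositide kinase gene (chromosome 19, 24361747 to 24362990), gave 15.97, 10.8, 15.0, 10.2 and 12.7 CPM against 4.13, 6.33 and 9.43 (log2 -0.91, SE 0.20; edgeR adjusted p = 0.00821). Of all 30, 3 passed in each of the 12 fits that left out 1 library, and they were Gm11221, Pip5k1b and Gins4. Among the other alternatives, Gm11221 lost its call in 1, Gins4 in 3 and Pip5k1b in 4. DESeq2 kept 2 of the 30 calls, and edgeR with the Y share as a covariate kept 2. Of 156 tested regions of the histone modifier list 2 fell and 3 rose, with a median of -0.017. Among all tested regions 0.0398% were called lower and 0.423% higher. The 3 rises were all at Ehmt1, in the chromosome 2 stretch described above. The falls were at Kmt2c, a histone methyltransferase gene, and Arid1b, a subunit of a chromatin remodelling complex. The Kmt2c region (chromosome 5, 25383381 to 25383969) gave 15.1, 6.17, 6.74, 4.08 and 8.83 CPM in ConvR mice and 1.70, 3.47 and 5.56 in GermFree mice (edgeR adjusted p = 0.0196, log2 -1.25 with SE 0.30). Its call was lost in 6 alternatives and kept in 13. Those that lost it included the fits without ConvR mouse 1 (-1.04) or GermFree mouse 2 (-1.15). Arid1b (log2 -0.70; edgeR adjusted p = 0.0494) passed when GermFree mouse 1 or 6 was left out and did not when any of the other 10 mice was, with values from -0.62 (without GermFree mouse 4) to -0.75 (without ConvR mouse 5).

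**Figure D4:**
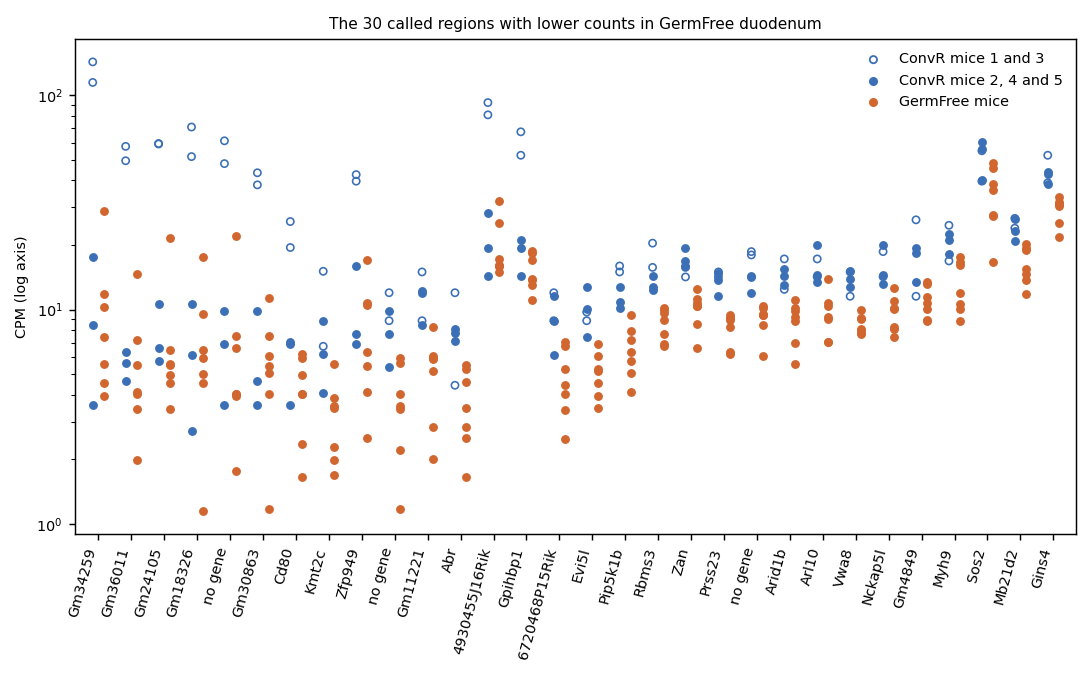
CPM (y axis, log scale) of the 30 called regions that were lower in GermFree duodenum, ordered by log2 difference from the largest fall, with ConvR mice in blue and GermFree mice in orange. Open circles are ConvR mice 1 and 3, which stand above the other ConvR mice at Gm34259 and its neighbours in the plot and lie among them toward the right.

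Genes of the duodenum's cell types and functions showed few calls. Of 641 genes in 29 lists, 635 matched a RefSeq symbol and 485 had a tested region. Beside the lists named above, Ehmt1 rose and Kmt2c and Arid1b fell among 33 tested histone modifier genes, Cacna1b rose among 17 enteric neuron and glia genes, and Cr2 among 20 B and plasma cell genes. No gene was called among 22 other natural killer receptor and signalling genes, 28 genes of natural killer and innate lymphoid cytokines, effectors and transcription factors, 17 T cell genes, 27 genes of enterocyte absorption, 10 of iron and calcium uptake, 10 of Brunner glands, 27 of microbial sensing and mucosal defence, 21 of the interferon response (a list without Ifi202b and Ifit3b, called above) or 15 of the DNA methylation machinery. The list medians in these 9 lists lay between -0.06 and 0.07, near that of all tested regions (-0.00276). The lists of myeloid, mast and eosinophil, epithelial transcription factor, stem, goblet, Paneth, enteroendocrine, tuft, smooth muscle and fibroblast, endothelial, pancreatic acinar, imprinted, metabolic and circadian genes also had 0 called genes with edgeR, and the lowest of their medians was -0.10 (Paneth cell, 7 genes tested). The 23 lists with no called gene held 1317 tested regions, 80 of them with an unadjusted p under 0.05, and none was called by DESeq2. A called region in or near a gene says nothing of the gene's expression.

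The share of counts on the X chromosome was 0.465%, 0.525%, 0.364%, 0.522% and 0.434% in ConvR mice 1 to 5, and 0.56%, 0.82% and 1.26% (lowest, median, highest) in GermFree mice. All 7 GermFree mice lay above the ConvR mice (difference 0.37 percentage points; two-sided exact permutation p = 0.00379, adjusted p = 0.0227 over 6 shares, where 0.00126 is the smallest p that relabelling these mice allows). The call was lost when any 1 ConvR mouse was left out (adjusted exact permutation p = 0.0545 to 0.0909, with differences of 0.35 to 0.39). Outside the family intervals the X share was 0.262% to 0.352% in ConvR and 0.335% to 0.496% in GermFree mice, a difference of 0.0796 percentage points that did not pass (exact permutation p = 0.0101, adjusted p = 0.0606). The Y share was 1.42% ± 0.223 in ConvR mice (SD, n = 5) and 1.71% ± 0.253 in GermFree mice (SD, n = 7). It was above the ConvR range in 4 of 7 GermFree mice (exact permutation p = 0.0682, adjusted p = 0.0818). With this share as a covariate edgeR called 221 regions, 214 higher and 7 lower. The autosomal share (difference -0.83 percentage points, exact permutation adjusted p = 0.072), the share in gene bodies (-0.85, 0.0818), the share outside genes (0.77, 0.0818) and that near gene ends (0.079, 0.311) did not pass. Without GermFree mouse 6 the autosomal share (-0.971, adjusted exact permutation p = 0.0195), the Y share (0.35, 0.0364), gene bodies (-1.04, 0.0325) and outside genes (0.929, 0.0325) did.

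The same mice gave the other sections, so the duodenum values are set beside theirs as a description. Of the 319 higher calls, the GermFree mean was higher in 313 in the jejunum, 318 in the ileum and 316 in the colon, where 37012, 37284 and 37377 of all 75328 regions were. Of the 30 lower calls it was lower in 19, 22 and 25, where 38316, 38044 and 37951 of all regions were. Their median log2 ratio was -0.969 in the duodenum and -0.163, -0.281 and -0.209 in the jejunum, ileum and colon. The median log2 ratio of means at the higher calls was 1.17 in the duodenum, 0.81 in the jejunum, 1.09 in the ileum and 1.10 in the colon, and the duodenum values of both sets are raised in size by the choice of regions there. At H60b the log2 ratios were 2.14, 1.79, 1.88 and 1.99 in that order. At Cacna1b, in the region from 24755995, they were 1.11, 0.74, 1.08 and 1.05. At Kmt2c they were -1.35, 0.346, 0.002 and -0.149. Whether the duodenum differed from the mean of the other 3 sections was tested directly over all 48 libraries. edgeR called 0 of 95876 regions (4277 at an unadjusted p under 0.05), DESeq2 called 0 (2511), and edgeR with the mouse as a block called 0 (4816). The 3 smallest p-values in the fit without a block were at Vwa8 (contrast -0.88, SE 0.205), within 50 kb of Kdm4a, a histone demethylase gene (1.20, SE 0.289), and at Fam78a (0.89, SE 0.216), each with an edgeR adjusted p of 1. With the mouse as a block Kmt2c was among the 3 smallest (contrast -1.34, SE 0.325; unadjusted p = 5.13e-05, edgeR adjusted p = 0.981).

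**Figure D5:**
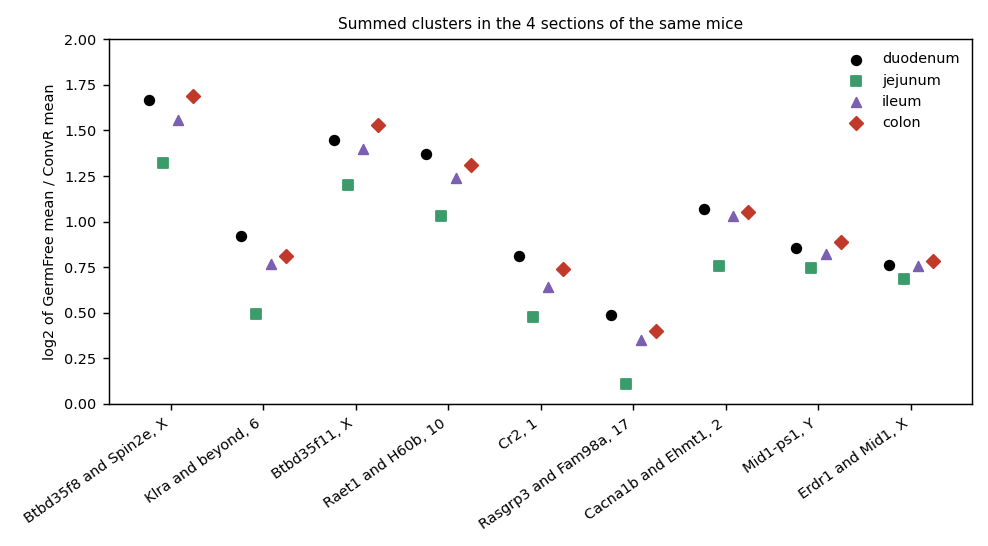
Log2 of the GermFree mean over the ConvR mean (y axis) of the summed CPM of the 9 clusters (x axis, with chromosome) in the 4 sections of the same 12 mice. All values are above 0, from 0.11 (Rasgrp3 and Fam98a, jejunum) to 1.69 (Btbd35f8 and Spin2e, colon), and the jejunum has the lowest of the 4 values in each cluster.

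A 4-character code in the sample titles is shared by 1 ConvR and 1 GermFree mouse for 5 codes, and the sources used here do not say what it stands for. The values within pairs are a description, since the regions were called on these same mice. Within the codes the median log2 difference was 2.18 at H60b (1.07 to 2.47), 1.42 at the Cacna1b region from 24755995 (0.56 to 1.52), 0.91 at Pxmp4 (0.47 to 1.43) and -1.36 at Kmt2c (-1.91 to -0.0654). The direction of the call held in all 5 codes at 259 of the 319 higher calls and at 19 of the 30 lower calls. At Gm34259 the values ran from -4.83 to 1.71, with GermFree lower in 3 codes and higher in 2. With the code as a block edgeR called 255 regions. GermFree mice 5 and 7 share a code that no ConvR mouse has, so in that fit they add nothing to the difference between the models. A call lost with this block therefore cannot be told apart from a call lost without these mice.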

How the data were processed

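The data were MBD-seq counts from 48 libraries, 12 of them duodenum. Per the labels' protocols, DNA was sheared, methylated fragments were captured with the MethylMiner kit and libraries were read as 100-bp single-end reads. The submitters' processing notes name Trim Galore 0.3.7, cutadapt 1.4.2, MACS2, featureCounts and mm10. The deposited table holds whole-number counts per region, with no normalization. The deposited peak list gives a score per region, used only in 1 alternative filter. The sources used here do not say on which libraries peaks were called or how reads were placed among similar copies.

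Counts of the 12 libraries were filtered with filterByExpr, scaled by TMM and tested with edgeR 4.0.16 (quasi-likelihood F-test, Benjamini-Hochberg adjustment, threshold 0.05, R 4.3.3), with GermFree against ConvR as the only term. DESeq2 1.42.0 was an alternative. CPM values are TMM-scaled. Shares of counts were tested by exact permutation. The section contrast used all 48 libraries. The test scripts were tested on simulated data. Regions were matched to RefSeq genes (GRCm38.p6) by overlap, within 5 kb, or within 50 kb. Named genes were, among called regions, the largest rises and falls and the smallest p-values outside the families, those with the smallest p inside each family, and called members of the lists; others are said to be chosen after their values were seen. The members, lists and rules were chosen with earlier results of these data known. Library totals ran from 1227571 to 3033782 counts, which limits precision at regions with few counts. One item is not reported here.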

Additional observations from a re-analysis of the deposited data

Results flagged for a closer look

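In groups of 4 to 10 mice a sample was singled out when its gap to the nearest other mouse was large for the range of its group, a test that chance passes in about 1 of 20 groups. It singled out 6 of 126 groups. GermFree mouse 2 stood above the other GermFree mice at 4 regions that were lower in GermFree duodenum. It gave 28.84 CPM at Gm34259, 21.49 at Gm24105, 14.7 at Gm36011 and 22.05 at a region of chromosome 10 with no gene near it (from 91695324). At these same regions ConvR mice 1 and 3 were the highest of all 12 mice. At Gm5924 on the X chromosome (from 5310709) ConvR mouse 3 stood below the other ConvR mice, with 5.99 CPM. The library total of GermFree mouse 6 (2715855 counts) stood above those of the other GermFree mice. The cause was not tested for any of them.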

How the results depend on the processing

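The count of 349 called regions was 226 with DESeq2 (224 higher, 2 lower), 195 on autosomes only (168 higher), 141 with regions outside the family intervals only (125 higher, 16 lower) and 221 with the Y share as a covariate (7 lower). Lower calls, 30 in edgeR, numbered 13 among regions with a score at or above the median and 7 without ConvR mice 1 and 3. Calls outside the families, 173 in edgeR, numbered 96 with DESeq2, 108 with the title code as a block, 93 with the Y share and 108 without ConvR mice 1 and 3. With single libraries left out, calls ran from 284 (without GermFree mouse 5) to 467 (without ConvR mouse 2), lower calls from 9 (without ConvR mouse 3) to 84 (without ConvR mouse 2) and calls outside the families from 129 (without ConvR mouse 3) to 279 (without ConvR mouse 2). Of the 349 calls, 239 passed in each of these 12 fits. Genes with a called region fell from 157 to 104 when only overlap counted. Without ConvR mice 1 and 3, a setting in which 256 of the 349 calls were kept, Gm18326 and Gm36011 turned to 0.129 and 0.0573.

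The correlations of same-numbered deviations were -0.00129, -0.0759, -0.0533, -0.0239 and -0.031. Those of unlike-numbered mice ran from -0.127 to 0.142, so these values cannot show whether the numbers pair the mice. Mice numbered 1 to 4 share a title code with the same-numbered mouse of the other model. With the replicate block edgeR called 316 regions, 296 of them among the 349.

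The X share difference was 0.0796 percentage points outside the families (adjusted exact permutation p = 0.0606) and 0.34 without ConvR mice 1 and 3 (0.25). In the latter setting, 7 and 3 mice allow only 120 relabellings, too few for 1 share alone to pass after adjustment over 6 shares. All 7 GermFree mice lay above the ConvR mice there. The X difference ran from 0.301 to 0.418 without single mice. Without single mice the autosomal difference ran from -0.971 to -0.658, the Y difference from 0.207 to 0.356, gene bodies from -1.04 to -0.63 and outside genes from 0.557 to 0.929. Without GermFree mouse 6 these 4 passed (Y 0.35, adjusted exact permutation p = 0.0364). The section contrast called 0 regions in every fit run. The cause of these changes was not tested.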

Other observations

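The order of the GermFree mice along the clusters recurred across sections, which come from the same mice and are not independent. GermFree mouse 3 was the lowest and mouse 7 the highest GermFree mouse at both large X stretches and at Cr2 in 4 of 4 sections. In the duodenum these 3 clusters shared one order of the 7 mice, 7, 4, 5, 1, 2, 6 and 3 from the highest down. At both chromosome ends shared by X and Y, GermFree mouse 1 was the lowest in 4 of 4 sections. At Cacna1b and Ehmt1, ConvR mice 1 and 5 had the lowest sums of the 12 mice in each section. These are descriptions with no test.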
